A study of Mus musculus with 17 samples.

Results

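The tumours described here are the 3 EMT tumours that kept Cdh1 (E-cadherin), set against 8 Squamous tumours of the same Myc T58A mouse model. Of the 6 tumours labelled EMT (epithelial to mesenchymal transition), EMT 1, EMT 2 and EMT 3 were chosen because their Cdh1 probe set had a log2 value of 10 or above. Of the 9 Squamous tumours, the 8 with numbered array titles, Squamous 1 to Squamous 8, formed the other group. These are 11 of the 17 tumours of the series. RNA of each tumour had been measured on 1 Affymetrix mouse expression array. The other tumours were 1 Papillary and 1 Microacinar tumour, 3 EMT tumours with a Cdh1 value below 10 and 1 further Squamous tumour. All mice were of the FVB strain, and every tumour carried the mutant Myc T58A transgene under the MMTV promoter, a viral promoter that drives expression in mammary epithelial cells, in the setting the series calls low expressing. No normal mammary gland was included, so the Squamous tumours, which carry the same transgene, are the only reference. The labels give no age and no treatment, and leave unstated whether each tumour is from its own animal. Squamous 7 and Squamous 8 share a number in their titles. P-values therefore measure the spread between these tumours only, part of which may be technical, and 3 against 8 tumours is a small number on which to rest a test.

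In an epithelial to mesenchymal transition, epithelial cells lose E-cadherin junctions, gain motility and take up mesenchymal proteins such as vimentin, and transcription factors of the Zeb, Snai and Twist families repress Cdh1. Squamous mammary tumours keep epithelial junctions and make keratins of skin. Myc is a transcription factor that drives cell growth and entry into the cell cycle, and the T58A change removes a phosphorylation site that marks Myc for degradation. Passage through the cycle uses G1 kinases such as Cdk4, then the DNA replication machinery, then the mitotic kinases Cdk1, Aurka and Plk1, which assemble the spindle and separate the chromosomes. The mRNAs of many mitotic genes are made late in the cycle, and the letters TTTGAA or TTTAAA near their start sites are known as the cell cycle homology region, which is bound by the MuvB complexes that repress these genes in resting cells and activate them in G2.

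Promoters of 4 genes to which the results return are printed. Cdk1, Aurka and Cenpa are of the mitosis list, which had the largest share of non-overlapping values of the lists described below. Cdk4 is not in that list and is of the G1 list. The printed promoters are RefSeq windows of build GRCm38.p6, from 200 bases before to 30 bases after the annotated start, 5′ to 3′ on the strand of the gene. Cdk1 lies at chr10:69352883-69353112 on the minus strand, Aurka at chr2:172370541-172370770 on the minus strand, Cenpa at chr5:30666686-30666915 on the plus strand and Cdk4 at chr10:127063335-127063564 on the plus strand. Capitals mark TTTGAA or TTTAAA in Cdk1, Aurka and Cenpa, and CACGTG, the letters that Myc with Max binds, in Cdk4.
Cdk1: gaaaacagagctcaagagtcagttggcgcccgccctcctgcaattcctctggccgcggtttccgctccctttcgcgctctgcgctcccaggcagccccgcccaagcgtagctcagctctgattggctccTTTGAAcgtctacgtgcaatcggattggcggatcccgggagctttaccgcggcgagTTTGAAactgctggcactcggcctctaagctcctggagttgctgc
Aurka: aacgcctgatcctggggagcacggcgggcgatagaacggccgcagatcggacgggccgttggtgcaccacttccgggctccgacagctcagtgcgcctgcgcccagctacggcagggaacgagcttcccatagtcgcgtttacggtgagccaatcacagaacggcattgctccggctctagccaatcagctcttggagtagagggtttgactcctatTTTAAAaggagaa
Cenpa: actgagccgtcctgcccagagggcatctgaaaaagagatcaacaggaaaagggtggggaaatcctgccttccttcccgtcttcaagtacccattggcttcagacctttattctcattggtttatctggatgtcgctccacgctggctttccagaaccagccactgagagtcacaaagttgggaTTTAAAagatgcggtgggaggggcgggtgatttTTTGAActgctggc
Cdk4: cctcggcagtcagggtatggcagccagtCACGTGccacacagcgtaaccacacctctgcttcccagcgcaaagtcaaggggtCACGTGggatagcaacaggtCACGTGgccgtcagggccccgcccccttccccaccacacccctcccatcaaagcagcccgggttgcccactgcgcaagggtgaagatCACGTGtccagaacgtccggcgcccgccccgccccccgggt

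Both strands of each RefSeq window, here from 250 bases before to 50 bases after the start, were searched for these letters. TTTGAA was found in 34 of 50 windows of the mitosis list (68.0%, from 47 genes) and in 17.9% of all 32851 windows. All windows are those of 27025 RefSeq genes and not only of the 12393 genes tested on the arrays, from which the lists are drawn. TTTGAA or TTTAAA was found in 37 of the 50 mitosis windows (74.0%) against 27.6% of all windows, and CCAAT, which can overlap them by 1 letter at most, in 74.0% against 37.4%. The windows of the DNA replication list differed from this: 18.0% held TTTGAA, while 32.0% held one of 4 E2F words (TTTCCCGC, TTTGGCGC, TTTCGCGC or TTTGCCGC), against 6.0% of mitosis windows and 2.26% of all windows. E2F factors drive genes of the G1 to S transition. CACGTG, which reads the same on both strands, occurred 4 times in the printed Cdk4 window and at least once in 7.15% of all windows. Matches of letters are a description and were not tested, and the arrays measured RNA, not binding.

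The arrays were alike in their overall level, with medians of 7.23 to 7.35 on the 14 numbered arrays. The 3 arrays with TM titles, EMT 5, EMT 6 and Squamous 9, had a wider distribution of values and stayed out of the comparison. RNA quality, read as the 3′ minus 5′ log2 difference of control probe sets, was 0.02 to 0.20 for Gapdh in the 3 EMT tumours and 0.12 to 0.38 in the 8 Squamous tumours. For beta-actin it was 0.50 to 0.82 against 0.62 to 0.96, and a lower difference goes with more intact RNA. The part of RNA quality in the results was not tested.

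EMT 2 stood apart from EMT 1 and EMT 3. Over all probe sets, EMT 1 and EMT 3 correlated with r = 0.982, while EMT 2 correlated with either of them with r of 0.936 to 0.941, and the 28 Squamous pairs lay between 0.946 and 0.990. Probe sets are not independent replicates, and these values are a description. Among 6196 genes above the median level, EMT 2 was above all the other 10 tumours by more than 1 log2 unit in 110 genes and below all of them in 199, against 8 and 0 in EMT 1 and 0 and 1 in EMT 3. List results that EMT 2 moves are therefore given with and without it.

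The values that chose the EMT tumours are given without a test. Cdh1, the adhesion protein of epithelial junctions, was 11.91, 12.09 and 11.84 in EMT 1, EMT 2 and EMT 3. The Squamous tumours spanned 11.25 to 11.97 with a median of 11.72. The tumour just inside the limit was thus EMT 3 with 11.84, and just outside it was EMT 5 with 8.10, while EMT 4 had 7.19 and EMT 6 had 7.04. Epcam, an epithelial surface protein, was 12.18, 11.64 and 12.62 in the same 3 EMT tumours against 11.39 to 12.05 in the Squamous tumours, so the groups overlapped. The 40 measured genes of the epithelial junction list averaged 9.73, 9.81 and 9.93 in EMT 1, EMT 2 and EMT 3, within or just above the Squamous range of 9.13 to 9.86. In single genes of the list EMT 2 was above the highest Squamous tumour in 17 and below the lowest in 11, against 4 and 1 in EMT 1 and 8 and 0 in EMT 3. Krt8, a keratin of simple epithelium, was 12.64, 12.46 and 13.45, and its partner Krt18 was 12.37, 12.28 and 13.10. EMT 4 and EMT 6 had 13.20 and 12.50 for Krt8 and 12.29 and 11.52 for Krt18, and EMT 5 had 7.35 and 6.61. The Krt18 value of EMT 6, a TM array, was below the lowest of Squamous 1 to Squamous 8, 11.71. The level of Cdh1 itself was fixed by the choice of tumours. Cldn1, a tight junction protein, was the 1 junction gene of 40 without overlap (2.5%, against 1.45% of all genes). It was 9.67, 9.55 and 10.25 against 7.63 to 9.36, a log2 difference of 0.97 (EMT minus Squamous). Its other probe sets had log2 differences of 1.14, 0.31 and 0.04. The tumours are bulk tissue, in which fewer cells of a type and less RNA per cell cannot be told apart.

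Genes of mesenchymal transition overlapped between the 3 EMT tumours and the Squamous tumours. Of 31 measured genes 21 had a positive and 10 a negative log2 difference, with a median of 0.18, which turned to −0.15 without EMT 2. None reached an unadjusted p under 0.05 with limma, against 8.31% of all genes. No gene of the list lay above or below every Squamous tumour in all 3 EMT tumours, against 1.45% and 0.888% of all genes. With shares this small, a list of 31 genes can hold none without differing from all genes. Vim, the intermediate filament of mesenchymal cells, was 12.25, 12.57 and 12.42 in the EMT tumours, inside the Squamous range of 10.74 to 13.28. EMT 4, EMT 5 and EMT 6, with 13.85, 13.37 and 13.51, exceeded every Squamous tumour of the comparison. Zeb1, a repressor of Cdh1, was 8.04, 8.41 and 8.07 against 7.28 to 8.97. Its values in EMT 4 to EMT 6 were 10.13, 9.78 and 10.48. Zeb2, of the same family, was 7.60 to 7.90 in EMT 1 to EMT 3 against a Squamous median of 8.26. Twist1 was 6.96, 8.01 and 5.97, so that EMT 2 alone exceeded the highest Squamous value of 7.05. Snai2 was 8.61, 9.51 and 6.96 against 5.71 to 8.28. In EMT 4 to EMT 6 Twist1 was 8.76, 8.34 and 8.91, above that highest Squamous value. Snai2 went the other way, with 7.73, 6.27 and 5.78, within the Squamous range. The difference between EMT 1 to EMT 3 and EMT 4 to EMT 6 in these genes was not tested.

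No gene passed the test between the 3 EMT and the 8 Squamous tumours. With limma over 12393 genes and Benjamini-Hochberg adjustment, 0 genes (0.0%) had an adjusted p under 0.05, and the lowest adjusted p was 0.48. At an unadjusted p under 0.05 there were 1030 genes (8.31%), 611 of them (4.93%) higher and 419 (3.38%) lower in the EMT tumours. Over all genes the log2 difference, the EMT mean minus the Squamous mean, had a median of −0.01, with 48.2% of genes higher. All 3 EMT tumours lay above every Squamous tumour in 180 genes (1.45%) and below every one in 110 genes (0.888%). These percentages are the background against which the lists are read, and since no gene passed, differences below are values and not calls.

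**Figure D1:**
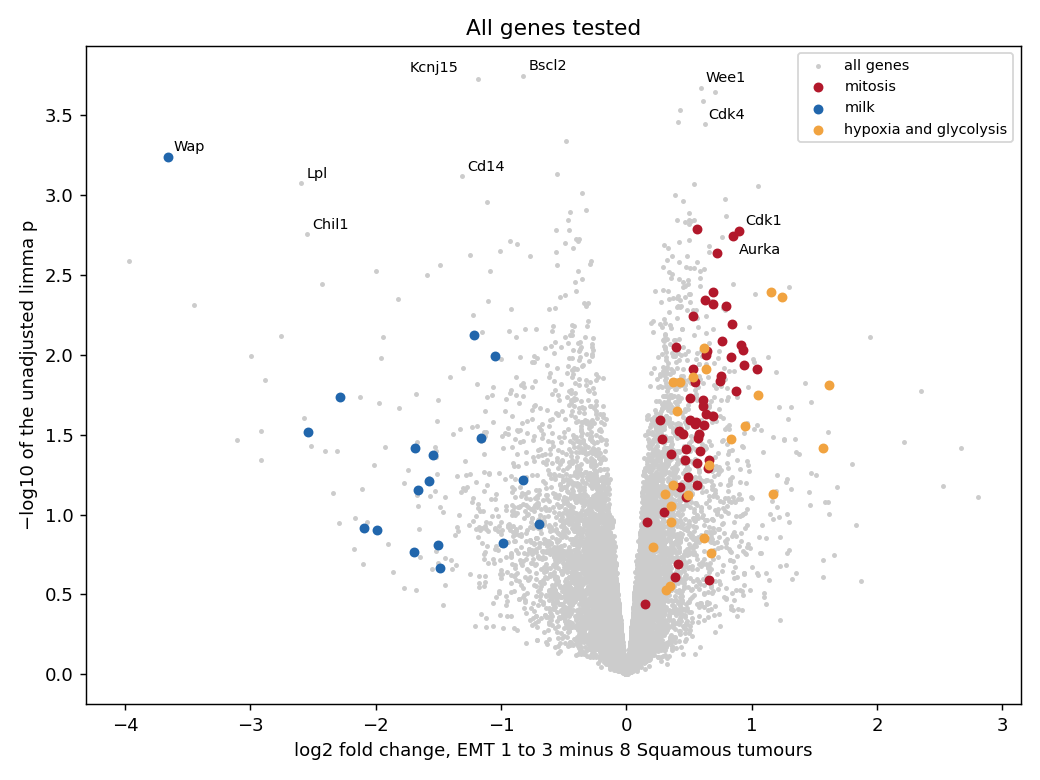
Log2 difference of each of 12393 genes, the mean of EMT 1 to EMT 3 minus the mean of the 8 Squamous tumours, against −log10 of the unadjusted limma p, with 3 gene lists in colour. All 56 mitosis genes lie right of 0 and all 18 milk genes left of it, and none passed an adjusted p of 0.05.

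Genes of mitosis lay higher in the 3 EMT tumours as a group, by less than 1 log2 unit in all but Cenpe. All 56 measured genes of the list had a positive log2 difference (EMT minus Squamous), from 0.15 for Nek2 to 1.04 for Cenpe, with a median of 0.58. Of these 45 reached an unadjusted p under 0.05 with limma, all higher, and 0 passed the adjusted threshold. Of all genes 4.93% were higher at that unadjusted p. The number at that unadjusted p was 23 without EMT 1, 40 without EMT 2 and 26 without EMT 3. In 26 genes (46.4%) all 3 EMT tumours lay above all 8 Squamous tumours, against 1.45% of all genes. The genes of the list are expressed together in dividing cells, so the count is not one of independent genes. EMT 1, EMT 2 and EMT 3 had list means of 8.86, 8.64 and 8.82. The list mean ranged from 7.62 in Squamous 2 to 8.53 in Squamous 3 with a median of 8.27 among the Squamous tumours, so the group means did not overlap.

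The members varied more between the EMT tumours than the means show. EMT 1 exceeded the highest Squamous tumour in 52 of the 56 genes and EMT 3 in 50, while EMT 2 did so in 29. The same tumours exceeded it in 13.1%, 12.7% and 20.6% of all genes, so EMT 2 had the smallest share in this list and the largest over all genes. Without EMT 2 the number of mitosis genes above every Squamous tumour was 47 of 56 (83.9%), against 4.62% of all genes. Without EMT 1 it was 26, against 4.03% of all genes, and without EMT 3 it was 28, against 3.67%. With all 4 EMT tumours with numbered titles, which adds EMT 4, it was 13 (23.2%), against 0.654% of all genes. Several genes had more than 1 probe set: of 103 probe sets of the list 99 had a positive and 4 a negative log2 difference.

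**Figure D2:**
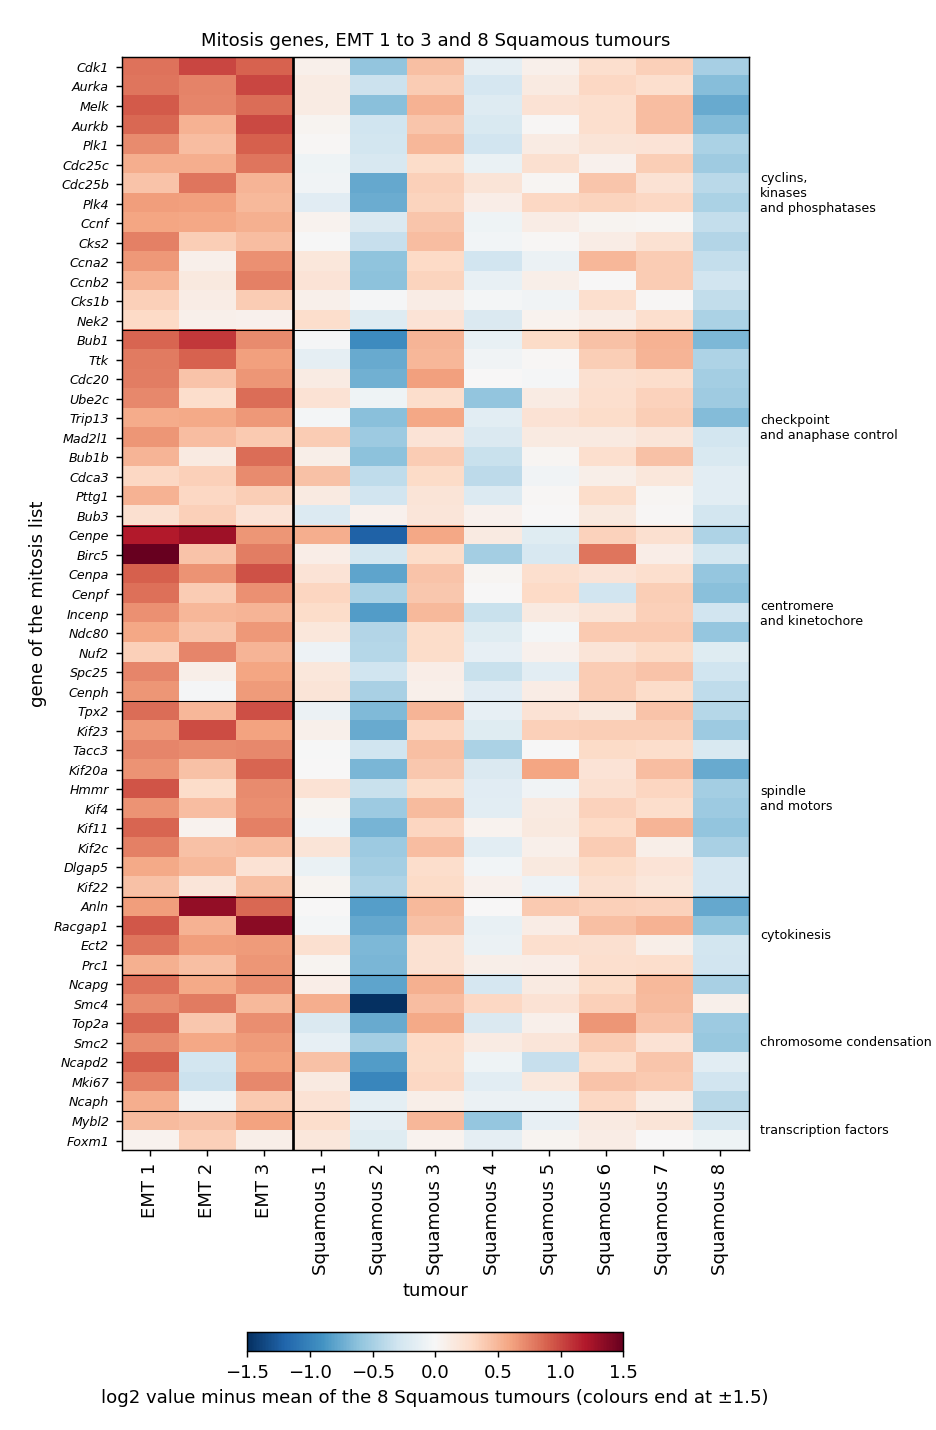
Log2 value of each of the 56 mitosis genes in each tumour minus the mean of the 8 Squamous tumours, in rows grouped by the role of the protein. EMT 1 and EMT 3 are above the Squamous mean in nearly every row, EMT 2 in most rows, and Squamous 2 and Squamous 8 are below it in most rows.

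Among cyclins, kinases and phosphatases, 8 of 14 genes did not overlap between the groups. Cdk1, the kinase that starts mitosis, was 10.02, 10.20 and 10.09 in EMT 1, EMT 2 and EMT 3 and ranged from 8.61 to 9.65 with a median of 9.28 in the Squamous tumours. The means were 10.10 ± 0.09 (SD, n = 3) and 9.20 ± 0.38 (SD, n = 8), and the highest Squamous tumour was 0.37 below the lowest EMT tumour. The log2 difference was 0.90 (SE 0.22, limma adjusted p = 0.48). Aurka, the Aurora kinase of the spindle poles, was 8.57, 8.51 and 8.77 against 7.13 to 8.15 with a median of 7.89. Every EMT tumour was above every Squamous tumour here too, and the log2 difference was 0.85 (SE 0.21, limma adjusted p = 0.48). Aurkb, the Aurora kinase of the centromere, was 8.37, 8.03 and 8.49, and the highest Squamous tumour, Squamous 7, had 7.97. Melk, Cdc25b, Cdc25c, Plk4 and Ccnf made up the 8. Ccnf, a cyclin of the F-box family, was nearly equal in the EMT tumours at 7.97, 7.96 and 7.91, against 7.02 to 7.79. Nek2, a centrosome kinase, had the smallest fold change of the list.

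Checkpoint and anaphase genes held 5 of 10 without overlap, namely Bub1, Ttk, Pttg1, Bub3 and Mad2l1. Bub1, a kinase that delays anaphase until chromosomes are attached, was 8.58, 8.77 and 8.42 in the EMT tumours and at most 8.23 in a Squamous tumour. Its log2 difference was 0.88 (SE 0.31), while that of Bub3, its partner, was 0.27 (SE 0.11). Of centromere and kinetochore genes 5 of 9 did not overlap. Cenpa, the histone that marks centromeres, was 9.36, 9.13 and 9.41 against 7.67 to 8.89. Cenpe, a kinetochore motor, was 6.22, 6.30 and 5.69 against 3.82 to 5.61. Most Squamous values of Cenpe lay below the lower quartile of all probe sets on the same arrays, 5.36 to 5.41, so they are low. All 4 cytokinesis genes lay apart: Ect2, which switches on the GTPase that pinches the cell apart, was 9.03, 8.85 and 8.86 against 7.55 to 8.47, and Anln, Racgap1 and Prc1 were above every Squamous tumour as well. Ect2 had the widest gap between the groups of all mitosis genes, 0.38.

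Other roles showed more overlap. Of 10 spindle and motor genes 2 did not overlap, Tacc3 and Kif23. Tacc3, which stabilises spindle fibres, was 8.23, 8.20 and 8.21, the narrowest spread in the EMT tumours, against 7.02 to 7.94. Of 7 chromosome condensation genes 2 did not overlap, Smc2 and Ncapg. Mki67, the proliferation antigen that coats mitotic chromosomes, was 11.10 and 11.06 in EMT 1 and EMT 3 and 10.02 in EMT 2, against 9.36 to 10.77, a log2 difference of 0.39 (SE 0.32). EMT 2 was therefore within the Squamous range for Mki67 and above it for Cdk1 and Aurka. Of the transcription factors of the list, Mybl2 had a log2 difference of 0.51 and Foxm1, which activates G2 genes, of 0.17, and both overlapped.

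In tumours outside the comparison the mitosis mean was 8.53, 8.45 and 9.13 in EMT 4, EMT 5 and EMT 6, 8.51 in the Papillary tumour, 7.98 in the Microacinar tumour and 8.34 in Squamous 9. The number of mitosis genes above the highest of Squamous 1 to Squamous 8 was 23, 23 and 48 in EMT 4, EMT 5 and EMT 6, 21 in the Papillary tumour, 2 in the Microacinar tumour and 13 in Squamous 9. Over all genes these tumours exceeded it in 23.6%, 34.8%, 34.9%, 9.76%, 12.9% and 29.0%. EMT 6 had a higher list mean than EMT 1 and EMT 3 but fewer genes above the Squamous tumours, EMT 4 and EMT 5 were near the top of the Squamous range, and the Papillary tumour was near it as well. EMT 5, EMT 6 and Squamous 9 are TM arrays, whose levels are set beside the others without a test.

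DNA replication genes followed in part. Of 49 measured genes 47 had a positive log2 difference with a median of 0.35. Of them 15 were higher at an unadjusted p under 0.05 with limma, against 4.93% of all genes. In 5 genes (10.2%, against 1.45% of all genes) the groups did not overlap. These 5 were Orc1 and Orc6, of the origin recognition complex, Pole2, a polymerase subunit, Rrm1, of ribonucleotide reductase, and Dbf4, the activator of the kinase that fires origins. Orc1 was 6.27, 6.13 and 6.12 in the EMT tumours and at most 5.91 in a Squamous tumour, with a log2 difference of 0.66 (SE 0.17). EMT 1, EMT 2 and EMT 3 had list means of 8.96, 8.43 and 8.82 against 7.93 to 8.64. EMT 2 lay within the Squamous range and the other EMT tumours above it. Without EMT 2 the number without overlap was 29 of 49 (59.2%, against 4.62% of all genes), and without EMT 1 it was 6 and without EMT 3 it was 7. The number at an unadjusted p under 0.05 with limma was 5 without EMT 1, 20 without EMT 2 and 9 without EMT 3, and the median was 0.23 without EMT 1 and 0.52 without EMT 2. Cdc6, which loads the helicase on origins, shows this order: it was 7.82, 7.01 and 7.80, with EMT 2 below the highest Squamous value of 7.40.

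Of the G1 genes, Cdk4 stood furthest apart. Cdk4, the cyclin D kinase that phosphorylates the retinoblastoma protein, was 10.70, 10.55 and 10.58 in EMT 1, EMT 2 and EMT 3. The Squamous tumours spanned 9.67 to 10.18 with a median of 10.04, so that the lowest EMT tumour was 0.37 above the highest Squamous tumour. The log2 difference was 0.61 (SE 0.11, limma adjusted p = 0.48), and the other 2 probe sets of Cdk4 gave 0.59 and 0.64. EMT 4, EMT 5 and EMT 6 had 10.64, 10.71 and 11.16. Squamous 9 had 10.40, and the Papillary and Microacinar tumours both had 9.84. Cdk4 is a known target of Myc, and its window printed above holds CACGTG 172, 118, 98 and 11 bases before the start. Cdk2, the kinase of S phase entry, was 8.59, 8.54 and 8.64 against 7.90 to 8.48. Rb1, the retinoblastoma protein itself, was 9.65, 8.90 and 9.48 against 9.31 to 10.40, a log2 difference of −0.55 (SE 0.24). E2f8, an atypical E2F repressor, was 8.04 and 8.48 in EMT 1 and EMT 3 but 10.68 in EMT 2, against 7.12 to 8.48. Across the 23 measured G1 genes 17 had a positive log2 difference, and the median was 0.18. Cdk4 and Cdk2 were the 2 without overlap (8.7%, against 1.45% of all genes).

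Myc overlapped between the groups. It was 12.40, 9.88 and 10.95 in EMT 1, EMT 2 and EMT 3 and ranged from 9.79 to 12.29 in the Squamous tumours, a log2 difference of −0.16 (SE 0.65, limma adjusted p = 0.95). Whether this probe set also detects transgene RNA is not given in the sources used here. The 17 measured genes of the Myc network had a median log2 difference of 0.05. Among them Ruvbl2, a helicase that binds Myc, was the gene without overlap, at 10.08, 9.91 and 9.94 against 9.21 to 9.76. The 44 genes of ribosome biogenesis, many of them targets of Myc, had a median of 0.10. Without overlap were 2 of them (4.55%, against 1.45% of all genes), Cdk4, which the list also holds, and Rrs1.

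**Figure D3:**
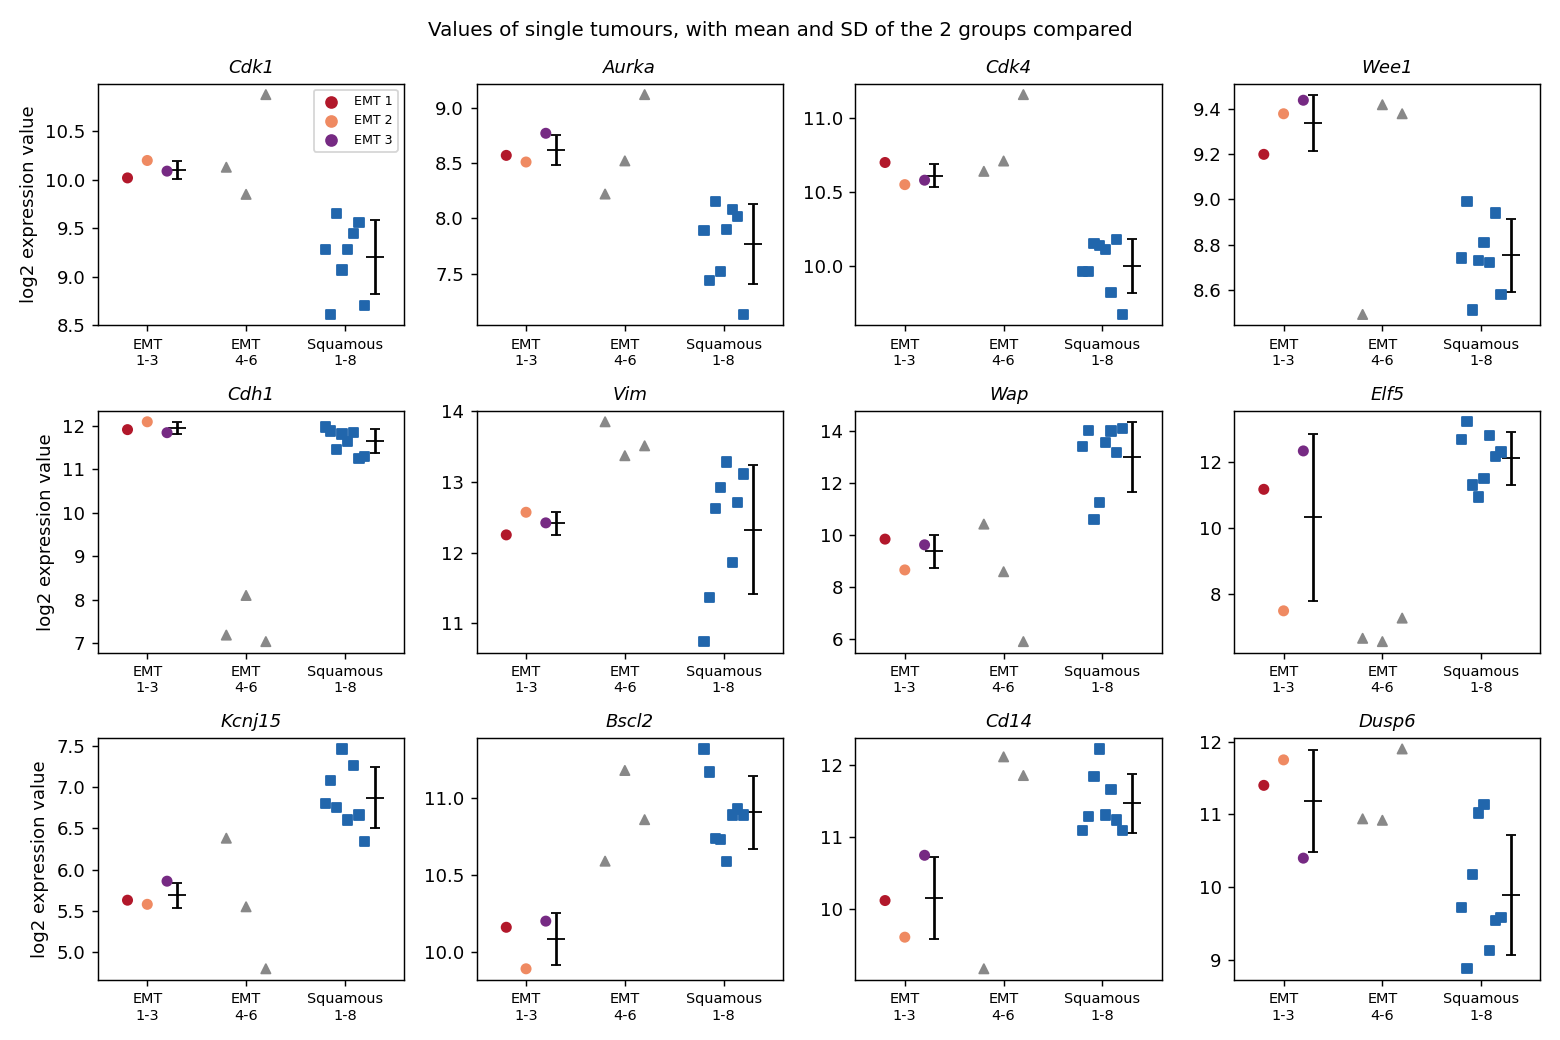
Log2 values of 12 genes in single tumours, with mean and SD bars of EMT 1 to EMT 3 (n = 3, circles) and of the 8 Squamous tumours (squares), and with EMT 4 to EMT 6 as triangles without a mean. Cdk1, Aurka, Cdk4 and Wee1 do not overlap between the groups, Vim overlaps, and for Elf5 EMT 2 lies at 7.50 apart from EMT 1 and EMT 3.

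Among genes without overlap, the 12 of lowest p on the higher side held further regulators of the cycle beside Cdk4. Wee1, the kinase that holds Cdk1 inactive before mitosis, was 9.20, 9.38 and 9.44 against 8.51 to 8.99 with a median of 8.73. Its log2 difference was 0.59 (SE 0.11, limma adjusted p = 0.48), so the inhibitor of Cdk1 was higher together with Cdk1. Fzr1, which activates the anaphase-promoting complex in late mitosis and G1, was 7.69, 8.04 and 8.11 against 7.09 to 7.56. Chmp4c, an ESCRT subunit of the final cut between daughter cells, was 5.81, 6.35 and 6.14 against 5.18 to 5.65. These Squamous values are low, around the lower quartile of all probe sets on the same arrays. The other probe set of Chmp4c had a log2 difference of 0.30 (SE 0.25), against 0.70 (SE 0.13). Ppp4c, the catalytic subunit of protein phosphatase 4, was 10.11, 10.33 and 10.32 against 9.70 to 10.02. Snrpd3, a core protein of the spliceosome, was 10.50, 10.73 and 10.40 against 9.62 to 10.12, but its other 2 probe sets had log2 differences of −0.20 and −0.35. Efna5, Myef2, Morf4l2, Kif21a, Mettl9 and Slc37a3 completed the 12, with log2 differences of 0.39 for Morf4l2 to 1.05 for Myef2. Kif21a, a kinesin, was 4.54, 6.26 and 6.17 in EMT 4 to EMT 6, below every tumour compared here.

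Among genes without overlap, the 12 of lowest p on the lower side were Bscl2, Kcnj15, Fmo5, Wap, Cd14, Tom1, Fas, Iscu, Plagl2, Map3k3, Atf6 and Chil1. Bscl2 encodes seipin, which shapes lipid droplets, and was 10.16, 9.89 and 10.20 against 10.59 to 11.32, a log2 difference of −0.83 (SE 0.15). Its other probe set gave −0.59 (SE 0.14). Kcnj15, a potassium channel, was 5.63, 5.58 and 5.86 against 6.34 to 7.46, a log2 difference of −1.18 (SE 0.21). Cd14, the lipopolysaccharide coreceptor made by macrophages and by mammary epithelium, was 10.12, 9.61 and 10.75 against 11.09 to 12.23. Fas, the death receptor, was 5.51, 5.71 and 5.77 in the EMT tumours. Squamous 2 had a Fas value of 5.77, and the 7 other Squamous tumours lay between 6.74 and 7.33. Chil1, a secreted chitinase-like protein, was 9.61, 6.88 and 8.21 against 10.05 to 12.72. The adjusted p of each of the 12 was 0.48 with limma. Without Squamous 2, Fas had a log2 difference of −1.26 and an adjusted p of 0.0315 with limma and was the 1 gene that passed.

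Milk genes lay lower, mostly through EMT 2. All 18 measured genes had a negative log2 difference with a median of −1.56. Of them 8 were lower at an unadjusted p under 0.05 with limma, against 3.38% of all genes. The groups did not overlap in 1 gene, Wap (5.56%, against 0.888% of all genes). Wap, whey acidic protein, was 9.84, 8.65 and 9.62 in EMT 1, EMT 2 and EMT 3 and ranged from 10.59 to 14.12 with a median of 13.49 in the Squamous tumours. The log2 difference was −3.65 (SE 0.76, limma adjusted p = 0.48). Squamous 3 and Squamous 4 had the lowest Squamous values, 10.59 and 11.26. EMT 2 was below the lowest Squamous tumour in 16 milk genes, and EMT 1 and EMT 3 in 3 each (88.9%, 16.7% and 16.7%). Over all genes these tumours were below it in 22.5%, 12.6% and 8.76%. Csn3, kappa-casein, shows the split: it was 13.67 in EMT 1 and 14.37 in EMT 3 but 9.23 in EMT 2, against 13.52 to 14.38. Without EMT 2 the median of the list was −0.57, with 3 genes at an unadjusted p under 0.05. That number was 15 without EMT 3 and 5 without Squamous 2, Squamous 7 or Squamous 8.

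The luminal and secretory program differed between the EMT tumours in the same way. Elf5, the transcription factor of the milk-secreting lineage, was 11.17 and 12.33 in EMT 1 and EMT 3 but 7.50 in EMT 2, against 10.94 to 13.21. Gata3, the luminal factor, was 9.16 and 9.30 but 5.66 in EMT 2, against 8.55 to 9.72. The luminal list of 22 genes had a median log2 difference of −0.07, or 0.14 without EMT 2, and averaged 9.03, 7.98 and 9.30 in EMT 1, EMT 2 and EMT 3, against 8.56 to 9.28. Lpl, lipoprotein lipase, which takes up fat for milk and in fat cells, was 10.56, 7.62 and 8.76 against 10.05 to 12.26, a log2 difference of −2.59 (SE 0.57). The adipocyte list had 17 of 18 genes negative with a median of −0.63, and its means of 7.33, 6.61 and 6.86 were at or below the Squamous minimum of 7.33. Adipoq, a defining fat cell hormone, was 6.39, 4.12 and 4.59 against 4.14 to 10.88. The part of fat tissue in the lower Lpl was not tested.

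Hypoxia and glycolysis genes lay higher in EMT 2 and EMT 3 and not in EMT 1. All 25 measured genes had a positive log2 difference with a median of 0.62. Of them 14 were higher at an unadjusted p under 0.05 with limma, against 4.93% of all genes. In 1 gene (4.0%, against 1.45% of all genes) the groups did not overlap. Genes of the list above the highest Squamous tumour numbered 1 in EMT 1, 21 in EMT 2 and 16 in EMT 3. Bnip3, a mitochondrial protein induced by low oxygen, was 10.15, 11.82 and 11.11 against 9.23 to 10.36, a log2 difference of 1.16 (SE 0.32). Vegfa, which attracts vessels, was 9.09, 11.01 and 9.94 against 8.26 to 9.53, so EMT 1 alone lay within the Squamous range. Car12, a carbonic anhydrase, was the gene without overlap at 9.88, 10.01 and 9.48 against 6.39 to 9.43. Without EMT 1 the number without overlap was 13 (52.0%, against 4.03% of all genes), and without EMT 2 it was 1 and the median was 0.34. The number at an unadjusted p under 0.05 with limma was 21 without EMT 1, 3 without EMT 2 and 9 without EMT 3.

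Targets of Ras-MAPK signalling and basal keratinocyte genes were led by EMT 2. The 20 measured Ras-MAPK genes had a median log2 difference of 0.57, with 17 positive and none (0.0%, against 1.45% of all genes) without overlap. Higher at an unadjusted p under 0.05 with limma were 4, against 4.93% of all genes, and none was lower at that p. Without EMT 2 the median was 0.35 with 1 such gene, and on leaving out each tumour in turn the number ranged from 1 to 6. The list mean was 9.07, 9.88 and 9.01 in EMT 1, EMT 2 and EMT 3, against 8.21 to 9.21. Dusp6, the phosphatase that ERK signalling induces against itself, was 11.40, 11.75 and 10.40 against 8.88 to 11.14, and EMT 3 lay inside that range. Tgfa, a ligand of the EGF receptor, was 9.62, 10.51 and 8.36 against 6.83 to 8.99. Hbegf, another ligand, was 11.95 in EMT 2 and 8.28 and 9.17 in EMT 1 and EMT 3, against 6.54 to 10.68. The 19 basal keratinocyte genes had a median of 0.65, which turned to −0.03 without EMT 2 and to −0.12 with array weights, and means of 9.38, 10.67 and 8.78 against 8.24 to 9.83. Krt5 was 11.47, 13.85 and 10.80 against 8.89 to 12.55 and Krt14 was 11.94, 14.57 and 11.68 against 10.58 to 13.84, so EMT 2 exceeded every Squamous tumour for both keratins. Trp63, the transcription factor of basal epithelium, was 10.52, 11.05 and 8.86 against 7.09 to 10.88. The 47 genes of squamous differentiation had a median of 0.15 and none without overlap. Gjb6, a connexin of stratified epithelium, was 8.60, 7.95 and 7.43 against 7.53 to 12.31.

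Genes that EMT 2 alone carried higher included Hmga2, a chromatin protein of embryonic and invasive cells, at 12.71 against at most 10.16 in the other 10 tumours. Itga3 and Col17a1, of the contacts between basal cells and their matrix, were 12.11 and 12.18 in EMT 2. Among those it carried lower, Muc15, a membrane mucin of milk, was 4.64 against at least 9.59, and Lcn2, an iron-sequestering secreted protein, was 9.02 against at least 13.18. EMT 1 exceeded the other 10 tumours in Id4, an inhibitor of DNA-binding proteins, at 12.25 against at most 10.11, and in Ptn, a secreted growth factor, at 12.16.

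The mean of the interferon genes lay below the Squamous range in EMT 2 and EMT 3 and inside it in EMT 1, and that of class II genes lay near its low end in all 3. Of 31 interferon genes 30 had a negative log2 difference with a median of −0.62. In 1 gene (3.23%, against 0.888% of all genes) the groups did not overlap. Lower at an unadjusted p under 0.05 with limma were 6, against 3.38% of all genes. The list mean was 7.50, 6.86 and 7.02 in EMT 1, EMT 2 and EMT 3 against 7.10 to 8.83. Without EMT 2 the median difference was −0.42 and 0 genes reached that p, and without EMT 3 there were 2. Squamous 3 and Squamous 8 were the highest at 8.74 and 8.83. Parp14, an interferon-induced ADP-ribosyl transferase, was 7.17, 7.13 and 7.11 against 7.26 to 8.91. Cxcl9, a chemokine induced by interferon gamma, was 5.82, 5.87 and 4.75 against 5.06 to 11.28. All 9 class II presentation genes were negative with a median of −0.77, and their means of 7.79, 7.82 and 7.73 lay near the low end of the Squamous range of 7.62 to 9.71.

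Markers of immune cells mostly had differences of the same sign, few of them at an unadjusted p under 0.05 with limma (1 macrophage, 0 T and NK cell and 1 B and plasma cell gene). Of all genes 3.38% were lower at that p. Of 31 macrophage genes 29 had a negative log2 difference with a median of −0.46, and the mean level was 9.24 to 9.52 in the EMT tumours against 8.69 to 10.67. Of 25 T and NK cell genes 21 were negative, with means of 5.26 to 5.29 against 5.28 to 6.33. These EMT means lay below the lower quartile of all probe sets on the same arrays, 5.35 to 5.37, so the values are low. Of 15 B and plasma cell genes 12 were negative, with means of 5.92 to 6.19 against 5.95 to 7.79. Cd3e, which defines T cells, was 6.56, 6.68 and 6.28 against 6.71 to 7.53. It was the only T and NK cell gene without overlap (4.0%, against 0.888% of all genes). Jchain, of plasma cells, was 7.26, 5.54 and 6.11 against 6.26 to 13.47. The part of infiltrating cells in the lower interferon and class II values was not tested. Of 31 fibroblast genes 20 were positive with a median of 0.09, which turned to −0.24 without EMT 2, and their means of 9.60, 10.37 and 9.47 lay inside the Squamous range of 7.93 to 10.57. Endothelial genes had a median of 0.02, skeletal muscle genes of −0.33 and neutrophil genes of −0.34, with all EMT means inside the Squamous ranges. Whether the share of tumour cells differed, and its part in the higher mitosis values, was not tested.

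**Figure D4:**
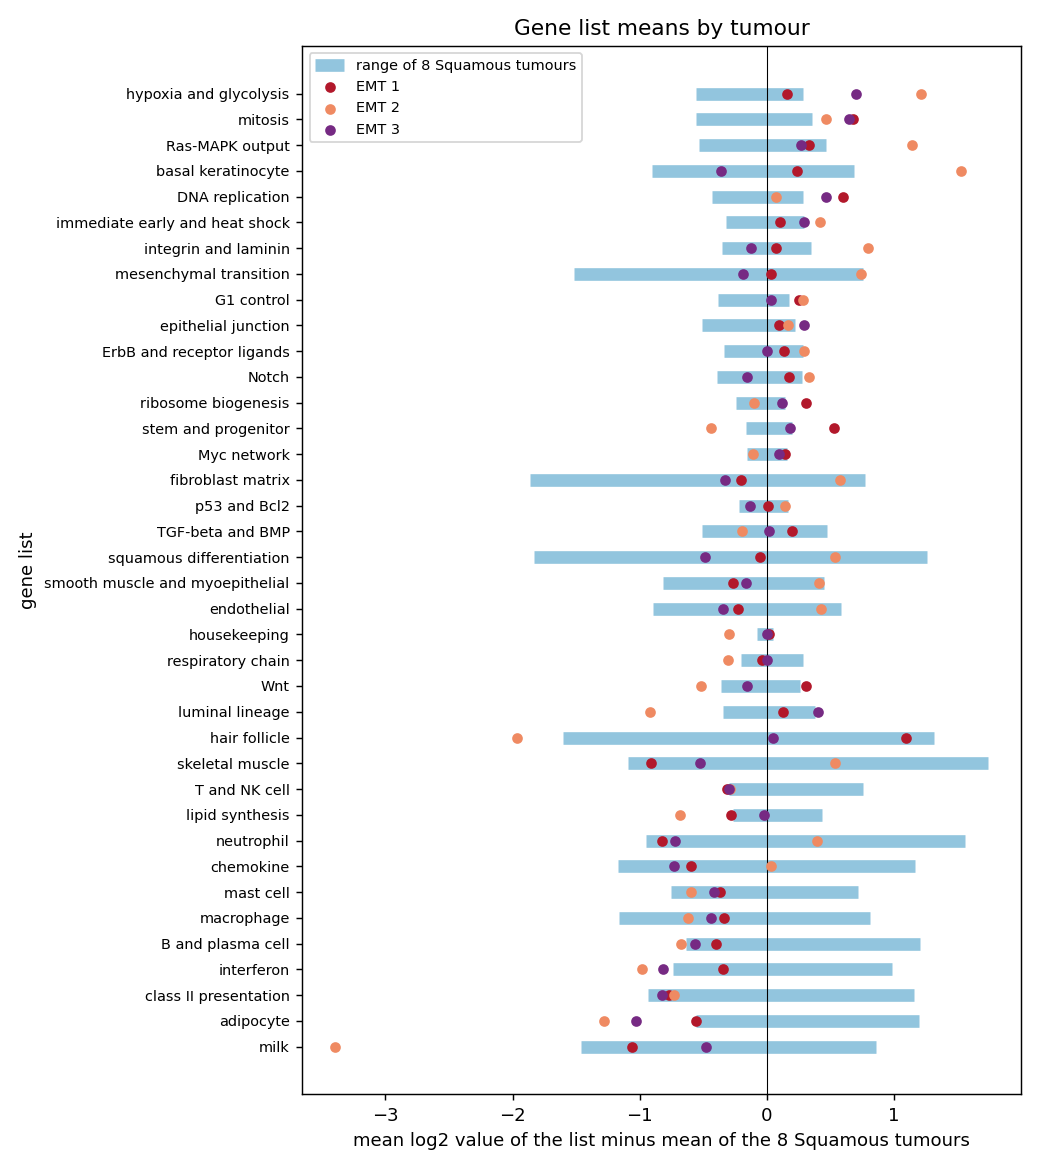
Mean log2 value of each of 38 gene lists in EMT 1, EMT 2 and EMT 3 (points), and the range of the 8 Squamous tumours (bars), each minus the Squamous mean. The 3 EMT tumours lie together above the bar for mitosis, while EMT 2 lies apart for milk, luminal lineage and basal keratinocyte genes.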

How the data were processed

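Each tumour's total RNA was labelled with biotin and measured on 1 Affymetrix array, per the labels' protocols. The authors deposited log2 values for 22690 probe sets (the scale follows from their range); their normalization is not given in the sources used here. The values were used as deposited. The 64 control probe sets were left out. Of the others, the supplied annotation, which can be old, paired 20380 with 1 gene symbol, 691 with several and 1555 with none, and gene identifiers matched 20351 to RefSeq names. The probe set of highest mean over all 17 arrays stood for each of 12393 genes.

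EMT 1 to EMT 3 and Squamous 1 to Squamous 8 entered 1 linear model fitted by limma 3.58.1 under R 4.3.3 (lmFit and eBayes, Benjamini-Hochberg over all genes, threshold 0.05), with no covariate. The model was tested on simulated data. A group does not overlap where all 3 EMT tumours lie beyond all 8 Squamous tumours. Lists are described by counts, medians and means, with no set test. The members, the 38 gene lists (971 of 1080 entries measured) and the tests were chosen with earlier results of these data known. The named genes are the 12 of lowest p in each direction without overlap, since none passed the threshold, the gene of lowest p in each list, and a fixed set of 20. Other genes in the text were chosen after their values were seen. The alternatives tried were array weights, quantile normalization, a robust fit with a trend, the mean of a gene's probe sets, every probe set, array medians set equal, only genes with a mean above the median gene's, Squamous 7 and Squamous 8 averaged, all 4 EMT tumours with numbered titles, all 6 EMT and 9 Squamous tumours with a title format term, a fold threshold, and leaving out each tumour. The tables were made with Python 3.11.15 and pandas 2.3.3. The number of arrays limits the precision.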

Additional observations from a re-analysis of the deposited data

Results flagged for a closer look

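In 9 of 111 genes and list means examined, 1 of the 8 Squamous tumours lay far from the others for the size of the group; chance flags about 1 in 20 such groups. Squamous 2 had the low values for Fas (5.77, next 6.74), for Snai2 (5.71, next 7.23) and for the mean of the G1 control list (7.84, next 8.18). Squamous 8 was low for Itgb4, an integrin of hemidesmosomes (8.42, next 9.28), and for the mean of the epithelial junction list (9.13, next 9.61), and high for Fmo5 (5.66, next 5.44) and for the mean of the T and NK cell list (6.33, next 5.61). Squamous 3 was low for Lpl (10.05, next 11.43), and Squamous 4 was high for Chil1 (12.72, next 11.11).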

How the results depend on the processing

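The count of genes past the adjusted threshold was 0 in both directions under every alternative except without Squamous 2, where it was 1 lower gene, Fas (range 0 to 1 on leaving out each tumour). The lowest adjusted p was 0.0982 with all 6 EMT and 9 Squamous tumours and the title format term, and 0.21 with array weights, with limma. The number of mitosis genes without overlap was 26 to 47 on leaving out each tumour, highest without EMT 2, and 13 with all 4 EMT tumours with numbered titles; these settings were applied to this count after the data were seen. List medians moved beyond the spread between tumours in these cases. The epithelial junction median was −0.42 with all 4 EMT tumours and −1.18 with all 6 against 9, and with the last setting the luminal median was −0.93, the basal keratinocyte median −0.62 and the squamous differentiation median −1.78. These settings add EMT tumours with a Cdh1 value below 10. The adipocyte median was −1.54 and the T and NK cell median −0.80 among genes above the median level, where fewer genes were tested, and the Notch median was −0.10 with array weights. Of 1437 values of named genes 37 had the other sign, in 15 genes, none of them a call; leaving out EMT 2 turned Gata3, Myc, Krt5 and Krt14. No paired analysis was possible because the replicate numbers only name the tumours. With 3 EMT tumours, 1 of which stood apart, differences of the size seen here did not pass a test over all genes.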

Other observations

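The comparison above does not describe the p53 and Bcl2 list beyond Fas. This list held 2 of 23 genes below every Squamous tumour (8.7%, against 0.888% of all genes). Fas lay below the lowest Squamous tumour by 0.005. The other gene was Bbc3, which encodes the cell death protein Puma. Bbc3 was 7.51, 7.14 and 7.39 in EMT 1, EMT 2 and EMT 3 against 7.53 to 7.76. Pmaip1, which encodes Noxa, was 7.72, 9.96 and 6.73 against 5.41 to 7.66, so EMT 1 and EMT 2 lay above the Squamous tumours and EMT 3 among them. Over the list the median difference was −0.03.

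The hair follicle list of 29 genes separated the EMT tumours from one another more than from the Squamous tumours, with EMT 2 at a mean of 6.18, EMT 3 at 8.19 and EMT 1 at 9.24, against 6.54 to 9.46. The respiratory chain list had 27 of 33 genes with a negative log2 difference, of small size, with a median of −0.12 and means of 11.16, 10.89 and 11.20, of which EMT 2's lay below the lowest Squamous tumour. Both are values, with no test and no explanation.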
